A study of Scomber scombrus with 32 samples.

Results

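The 4 genes nanos1, ces3, hopx and shisal1b were followed through 32 RNA libraries of 2 mackerel (Scomber scombrus) muscle cell lines, Mack1 and Mack2. They are 4 of the 24189 genes in the count table, and were picked from earlier results of these data as line-specific stage genes. The ground was taken to be that proliferating cultures before and after immortalization differed one way in Mack1 and the other way in Mack2. The proliferating libraries therefore chose them, and their values in proliferation are given as a description, with no test. The starved, serum-reduced and lipid-loaded Mack1 cultures are other libraries, and the tests of the 4 genes below compare these. Their spread between replicates was estimated over all Mack1 libraries, proliferating ones included. Tests that compare proliferating libraries are of other genes only.

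Mack1 gave 24 libraries in 8 groups of 3: p27 cultures precede immortalization and p77 cultures follow it, and both were sampled proliferating, starved of serum, under reduced serum and loaded with lipid. Mack2 gave 8 libraries in 2 groups of 4, p2 before and p180 after immortalization, both in proliferation. Immortalization and any other change between p27 and p77, or between p2 and p180, cannot be told apart. The stages of the 2 lines also lie at unlike p numbers, so their stage differences do not cover like spans. Proliferating cells of both lines were kept in L-15 growth medium with 20% serum and 1 ng/mL of the growth factor FGF2. Starved cells were left unfed from confluence, and serum-reduced cells were fed 2.5% serum from confluence. Lipid-loaded cells were kept from confluence in growth medium with 10 µg/mL insulin, 0.5 mM IBMX, 0.25 µM dexamethasone and 10 µL/mL of a lipid mixture. The cells of both lines are labelled muscle stem cells, apart from 1 Mack2 p180 library labelled muscle satellite cell, and no agent or gene used for immortalization is given in the labels. Each line stands for itself alone, and nothing in the labels says that replicates came from separate cultures beyond the words experimental replicates, so the p-values speak of the spread among these libraries, which may be technical.

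Nanos proteins are zinc finger RNA-binding proteins that act with Pumilio and the CCR4-NOT deadenylase to silence messenger RNAs, and are best known from germ cells of flies and vertebrates. Carboxylesterases such as the product of ces3 cleave ester bonds in lipids and drugs. The product of hopx is a small homeodomain protein that does not bind DNA itself and, in the mouse heart, restrains serum response factor (SRF) by way of histone deacetylase. Shisa-like proteins such as that of shisal1b are membrane proteins related to Shisa, which in the frog Xenopus holds back Wnt and FGF receptors in the endoplasmic reticulum.

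Levels are in CPM, counts per 1 M counts of a library total scaled by TMM over all libraries, and stand as means ± SD where they are not given per library. Fold changes are log2 values ± SE from edgeR's quasi-likelihood fit. Where a group had no count, 3 counts over the group served as its floor and the fold is given as at least that value; the floor is 0.0333 to 0.0446 CPM. Groups with few counts are compared by their summed counts, with an exact 95% counting interval. These bounds take the count of the other group as exact. The lower end of the exact 95% interval of the fold is therefore given beside them where all libraries are used. Intervals cover counting error only. Line and batch nearly coincide in the labels (Mack1 is batch 1; Mack2 is batch 2, except replicate 4 of p2, labelled batch 1), so levels in one line are set beside those in the other with no test. Fish carry many duplicated genes, and whether near-identical copies shared reads in the authors' counting was not tested.

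Total counts ranged from 16.9 to 32 M per library. Of the 5 muscle markers found, myod1 and desma were detected in proliferating cultures of both lines. Levels of desma were 1287 ± 24.9 CPM in Mack2 p2 and 1.60 ± 1.02 CPM in Mack1 p77 (SD, n = 4 and 3). In proliferation pax7a averaged 0.258 and 0.0137 CPM in Mack1 p27 and p77, and 5.46 and 37.0 CPM in Mack2 p2 and p180. In the same order myog averaged 1.85, 0.162, 180 and 65.3 CPM, and myf5 averaged 0, 0, 0.354 and 0 CPM. The 5 germ cell markers summed to at most 0.607 CPM in any library and the 4 neural markers found to at most 0.125 CPM, with sox2, elavl3 and neurod1 at 0 in the proliferating groups. The 4 liver markers summed to between 0.0446 and 5.81 CPM. All 4 blood markers summed to at most 0.523 CPM, and the 1 epithelial marker found, epcam, to at most 0.350 CPM. Since these are bulk cultures, fewer cells with a transcript and less of it per cell cannot be told apart.

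Markers of other cell types moved with stage and state. The 4 fibroblast markers were all found, and in proliferation they summed to between 2282 and 2482 CPM in Mack1 p27, 3123 and 3288 CPM in p77, 5584 and 6230 CPM in Mack2 p2 and 1274 and 1365 CPM in p180. Of these, pdgfra, dcn and col1a1a had the directions of nanos1, ces3 and hopx in both lines, and lum did not. In proliferation levels of lum were lower at the later stage in both lines, at 0.128 ± 0.110 and 0.0260 ± 0.0226 CPM in Mack1 p27 and p77. In Mack2 p2 and p180 they were 2.36 ± 0.648 and 0.0345 ± 0.0412 CPM. In confluent Mack1 lum was higher in p77, at 10.8 against 1.11 CPM when starved and 2.31 against 0.920 CPM under reduced serum. When lipid-loaded it stood at 180 CPM in p77 against 13.5 CPM in p27. The level of pdgfra went from 17.8 ± 1.25 to 71.9 ± 5.11 CPM in Mack1 and from 4.19 ± 0.503 to 0.332 ± 0.137 CPM in Mack2. It was also higher in p77 in confluent cultures, at 59.7 against 16.5 CPM when starved and 12.8 against 0.813 CPM under reduced serum. Lipid-loaded cultures held 105 CPM of it in p77 against 15 CPM in p27. Mean dcn was higher in p77 in each confluent state. Mean col1a1a, most of the sums of this list, was higher in p77 when starved, at 3443 against 1499 CPM. It was lower in p77 under reduced serum, at 6746 against 7217 CPM with overlap, and when lipid-loaded, at 7210 against 9711 CPM. The sums of the fibroblast list in confluent Mack1 were 1571 to 1817 CPM against 3359 to 4995 CPM when starved, 7168 to 8573 CPM against 7164 to 7467 CPM under reduced serum, and 9991 to 10393 CPM against 8151 to 9098 CPM when lipid-loaded, p27 against p77.

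The 3 endothelial markers found of 4 summed to between 12.4 and 14.4 CPM in proliferating Mack1 p27 and 29.5 and 32.3 CPM in p77, and to at most 3.19 CPM in any confluent library, a fall in confluence that ces3 shared. In Mack2 they summed to between 1.38 and 2.67 CPM in p2 and 0.860 and 1.23 CPM in p180. Their levels came from kdrl and tie1, and cdh5, the cadherin of endothelial junctions, averaged at most 0.120 CPM in any group and was at 0 in proliferating p77. The 5 pigment and neural crest markers summed to between 21.5 and 24.4 CPM in proliferating p27 and 42.4 and 46.1 CPM in p77, nearly all of it kitb, and to at most 17.1 CPM in confluent cultures. In Mack2 the same sum was 1.35 to 2.22 CPM in p2 and 7.37 to 7.67 CPM in p180. The part of these markers in the results was not tested.

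In proliferation nanos1 (gene 133985849) went from low in p27 to high in p77 in Mack1, and from detected in p2 to nearly absent in p180 in Mack2. The 3 Mack1 p27 libraries held 3.96, 3.6 and 3.03 CPM, and the 3 p77 libraries 38.5, 35.7 and 37.4 CPM. The groups did not overlap, and the fitted log2 fold change was 3.40 ± 0.12, or 10.5-fold. The 4 Mack2 p2 libraries held 9.31, 9.06, 11.6 and 10.1 CPM, between the Mack1 groups. In Mack2 p180 a single count was found in replicate 1 and none in the other 3 libraries, against 670 counts in p2, which is 786-fold lower with an interval of 141 to 31078.

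The carboxylesterase gene ces3 (gene 133981746) had much the same order. Its libraries stood at 0.674, 0.814 and 1.52 CPM in proliferating Mack1 p27 and at 13.6, 11.1 and 11.9 CPM in p77, a log2 fold change of 3.61 ± 0.54. Replicate 3 of p27 was the highest of its group by counts, 34 against 16 and 19. In Mack2 p2 it stood at 10.8, 8.53, 12.1 and 9.24 CPM, overlapping Mack1 p77. In Mack2 p180 1 count was found over the 4 libraries together, in replicate 4, against 684 in p2. That is 802-fold lower with an interval of 143 to 31727.

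The homeodomain gene hopx (gene 133986230) was low in Mack2 at either stage, so its pattern is chiefly that of Mack1. Proliferating Mack1 p27 libraries held 1, 1 and 5 counts (0.0421, 0.0429 and 0.223 CPM), and p77 libraries 155, 147 and 124 counts (6.35, 5.43 and 5.15 CPM). The log2 fold change was 5.74 ± 0.55, and 6.90 without p27 replicate 3. In Mack2 the totals were 22 counts over the p2 libraries (0.202 to 0.407 CPM) and 4 counts over the p180 libraries (0 to 0.168 CPM), which is 6.45-fold lower with an interval of 2.19 to 25.7. Replicate 1 of p180 held 3 of the 4 counts, and without it the log2 ratio went from -2.69 to -4.32. These few counts kept hopx out of the fit of the Mack2 libraries.

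The remaining gene ran the opposite way, high in Mack2 p180 and close to the counting floor in all of Mack1. For shisal1b (gene 133982341) the 4 Mack2 p180 libraries held 34.9, 33.7, 34.0 and 32.1 CPM, and the 4 p2 libraries 0.985, 0.537, 0.742 and 1.05 CPM. The log2 fold change was 5.28 ± 0.11, or 38.8-fold. In proliferating Mack1 the p27 libraries held 5, 16 and 2 counts (0.211, 0.686 and 0.0892 CPM) and the p77 libraries 1 count together. That is 25.0-fold lower in p77, with an interval of 4.06 to 1030. The log2 ratio of -4.64 was -3.52 without p27 replicate 2, and a bound of -2.42 without p77 replicate 2, which held the 1 count.

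In Mack2 the library with the other batch label, replicate 4 of p2, lay within the range of the other 3 p2 libraries for nanos1 and ces3 and at the top of its group for shisal1b and hopx. Without it the log2 fold change of shisal1b was 5.40.

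**Figure D1:**
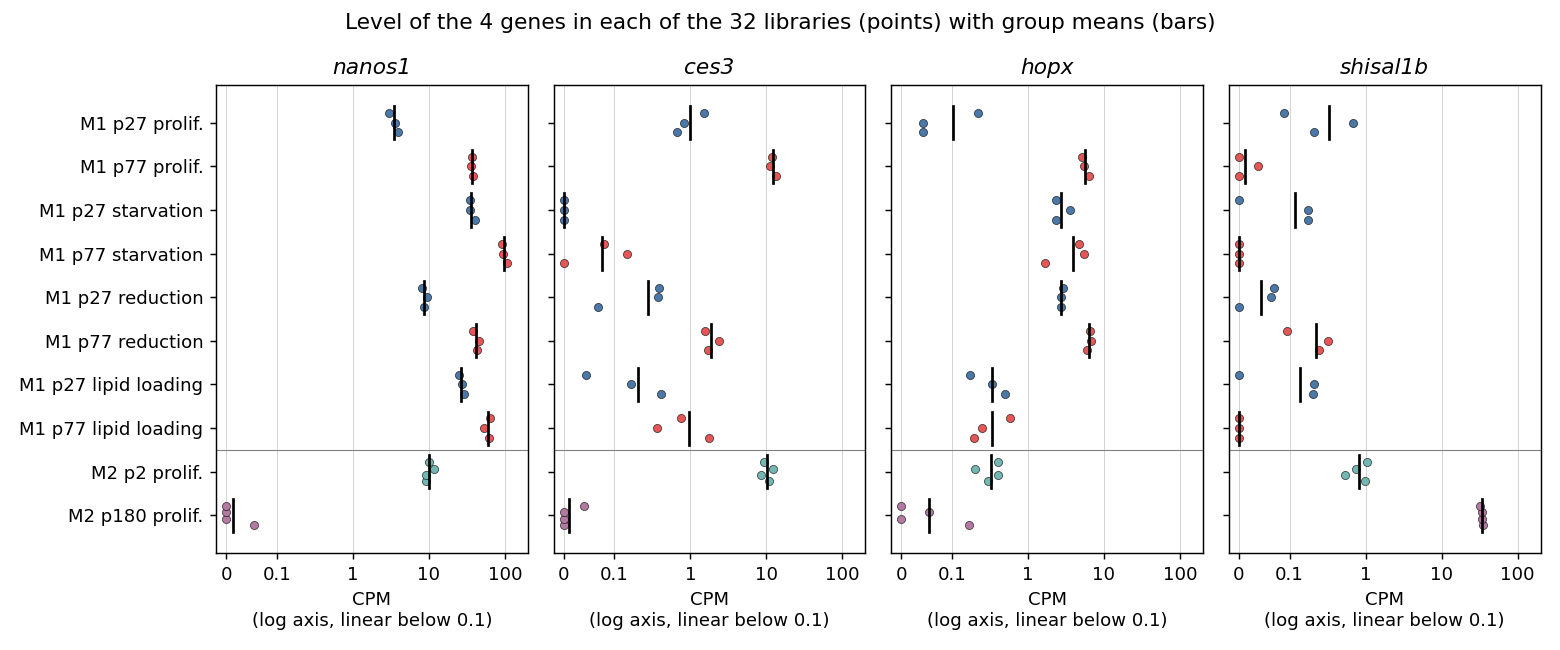
Level of each gene in every library, as CPM on a log axis that is linear below 0.1. Rows are the 10 groups (M1 is Mack1, M2 is Mack2), points are libraries and black bars are group means. In proliferation nanos1, ces3 and hopx are higher in Mack1 p77 than in p27 and lower in Mack2 p180 than in p2, and shisal1b shows the opposite order, with Mack2 p180 libraries at 32.1 to 34.9 CPM.

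The first question that other libraries could answer was whether the Mack1 stage difference was also found in confluent cultures. The fit of the 24 Mack1 libraries held nanos1, ces3 and hopx. The low-count filter left out shisal1b. Of the 3 genes in the fit, nanos1 was higher in p77 in each of the confluent states, ces3 in serum reduction and lipid loading, and hopx in serum reduction.

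In serum starvation nanos1 stood at 40.1, 34.4 and 34.8 CPM in p27 and at 107, 94.3 and 92.5 CPM in p77. All p77 libraries were above all p27 libraries, and the log2 fold change was 1.41 ± 0.10 (edgeR quasi-likelihood test, Benjamini-Hochberg adjusted p = 3.28e-11). In serum reduction it stood at 8.57, 9.45 and 8.13 CPM in p27 and 43.4, 45.1 and 38.1 CPM in p77, again with no overlap. The log2 fold change there was 2.29 ± 0.11 (edgeR adjusted p = 7.63e-15). Under lipid loading the p27 libraries held 28.7, 27.2 and 24.7 CPM and the p77 libraries 61.9, 53.9 and 63.6 CPM. The groups did not overlap there either, and the log2 fold change was 1.16 ± 0.10 (edgeR adjusted p = 5.18e-10).

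The stage difference of nanos1 was not of 1 size. It was smaller in serum starvation than in serum reduction, by a log2 difference of -0.88 ± 0.14 (edgeR adjusted p = 7.23e-05). It was also smaller in lipid loading than in serum reduction, by -1.13 ± 0.14 (edgeR adjusted p = 2.85e-06). Of all genes tested, 16.7% and 13.3% passed in these comparisons of stage differences, in either direction. Between lipid loading and serum starvation the difference of -0.25 ± 0.14 did not pass (edgeR adjusted p = 0.195).

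The stage difference of ces3 passed where the gene could be counted. In serum reduction the p27 libraries held 2, 12 and 11 counts (0.0675, 0.380 and 0.382 CPM) and the p77 libraries 49, 52 and 33 counts (1.71, 2.37 and 1.56 CPM). The groups did not overlap, and the log2 fold change was 2.76 ± 0.60 (edgeR adjusted p = 0.000847). Under lipid loading the p27 libraries held 0.412, 0.166 and 0.0431 CPM and the p77 libraries 1.76, 0.368 and 0.752 CPM, which overlap. The log2 fold change of 2.20 ± 0.66 passed (edgeR adjusted p = 0.0111), but not without p27 replicate 3 (1.74, edgeR adjusted p = 0.0640) or without p77 replicate 1 (1.42, edgeR adjusted p = 0.133). Without p27 replicate 1 it was 3.15. In serum starvation ces3 had no count in any p27 library and 0, 4 and 2 counts in the p77 libraries. That is at least 2.12-fold higher (exact interval from 1.25), and the difference did not pass (edgeR adjusted p = 0.126).

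For hopx the stage difference passed in serum reduction, where the p27 libraries held 2.70, 2.69 and 2.88 CPM and the p77 libraries 5.94, 6.85 and 6.45 CPM. The groups did not overlap there, and the log2 fold change was 1.23 ± 0.37 (edgeR adjusted p = 0.0112, 0.0573 by limma-trend, run on the normalized table). In serum starvation the p27 libraries held 2.37, 3.6 and 2.31 CPM and the p77 libraries 1.67, 5.44 and 4.76 CPM. Replicate 1 of p77 was below all p27 libraries, and the other 2 were above them. The log2 fold change of 0.52 ± 0.37 did not pass (edgeR adjusted p = 0.341), nor did the value of 0.89 without that library (edgeR adjusted p = 0.0653). Myogenin (myog), the transcription factor of terminal muscle differentiation, was also low in that library, at 168 CPM against 378 and 366 CPM in the other 2, and whether this bears on hopx was not tested. Under lipid loading hopx stood at 0.173 to 0.494 CPM in p27 and 0.196 to 0.581 CPM in p77, a log2 difference of 0.03 ± 0.56 (edgeR adjusted p = 0.975).

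**Figure D2:**
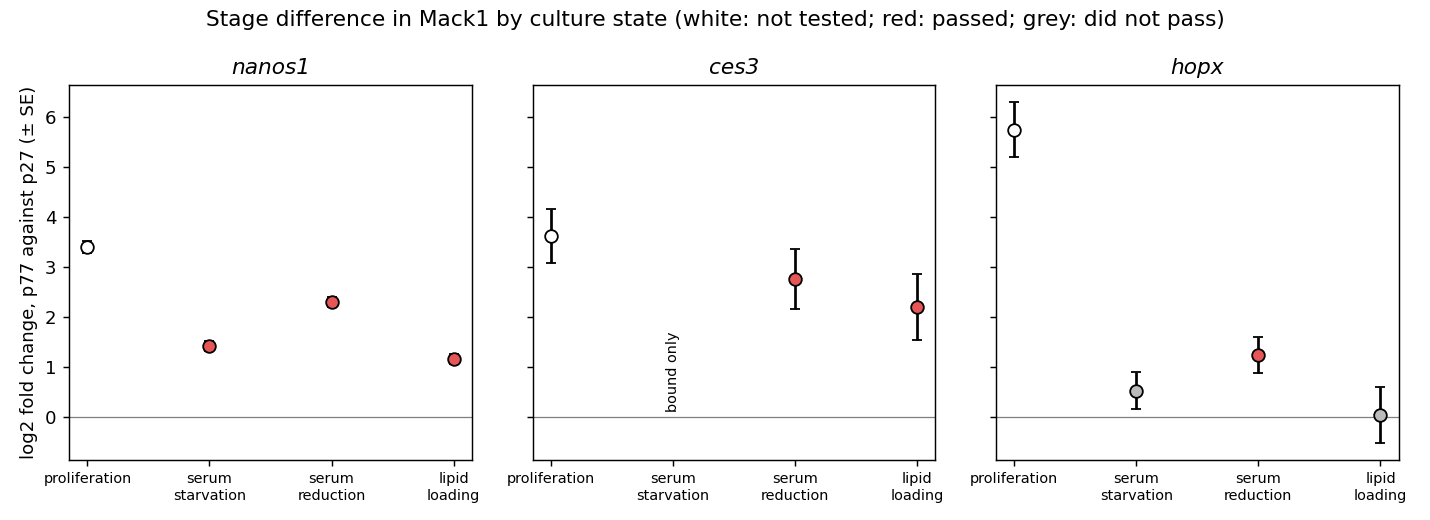
Log2 fold change of p77 against p27 in Mack1 with its SE for nanos1, ces3 and hopx, by culture state, n = 3 libraries per group. White points are the proliferating libraries that chose the genes and were not tested, red points passed at an adjusted p under 0.05 and grey points did not. The points of nanos1 lie between 1.16 and 3.40, and those of hopx between 0.03 and 5.74.

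Counts over these genes read as follows beside the rest of the genome. In serum starvation 1 of the 3 was higher in p77, and 11.1% of the 15683 genes tested were. In serum reduction 3 of 3 were higher, and 14.7% of all genes tested. In lipid loading 2 of 3 were higher, and 18.6% of all genes tested. With 3 genes these counts describe the genes and no more.

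For shisal1b, which was not in the Mack1 fit, the confluent states did not share a direction. It had 9 counts over the starved p27 libraries (5, 4 and 0) and 10 over the lipid-loaded ones (5, 5 and 0). The p77 libraries of either state had none, so the stages overlapped at 0 in both states. By summed counts p77 was at least 2.83-fold and at least 3.93-fold lower (exact intervals from 1.86 and 2.65). In serum reduction it had 0, 2 and 2 counts in p27 and 7, 7 and 2 counts in p77, a ratio of 5.03-fold higher with an interval of 1.62 to 20.7. With no low-count filter, edgeR passed none of the 3 differences (adjusted p = 0.180, 0.471 and 0.115 in starvation, reduction and lipid loading). All levels of shisal1b in Mack1 were under 0.686 CPM except that 1 library, replicate 2 of proliferating p27, which stood at that value.

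Culture state moved nanos1 at both stages. In p27 it was higher in serum starvation than in serum reduction by a log2 fold change of 2.07 ± 0.11 (edgeR adjusted p = 2.24e-14). Lipid loading was also above serum reduction, by 1.58 ± 0.11 (edgeR adjusted p = 1.09e-12), and below starvation, by -0.49 ± 0.10 (edgeR adjusted p = 0.000129). The order was the same in p77: starvation stood 1.2 ± 0.10 above reduction (edgeR adjusted p = 4.90e-10), and lipid loading 0.45 ± 0.10 above reduction (edgeR adjusted p = 0.000293) and -0.74 ± 0.10 against starvation (edgeR adjusted p = 3.24e-07). No 2 of the confluent states overlapped at either stage. Against the proliferating libraries, which chose the gene, the fitted values are a description: in p27 they were 3.39 ± 0.12 (starved), 1.32 ± 0.12 (reduced serum) and 2.91 ± 0.12 (lipid-loaded), and in p77 1.41 ± 0.10, 0.21 ± 0.10 and 0.67 ± 0.10. Starved p27 cultures thus held as much nanos1 as proliferating p77 cultures, 36.4 ± 3.13 against 37.2 ± 1.44 CPM, and these groups overlapped.

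The state profile of ces3 was different, with its lowest levels in starvation. In p27 it was at 0 in all 3 starved libraries, at least 7.42-fold below serum reduction (exact interval from 5.597, edgeR adjusted p = 0.00329). Lipid loading in p27 was at least 5.6-fold above starvation (exact interval from 4.02, edgeR adjusted p = 0.00559). In p77 starvation stood -4.51 ± 0.74 against reduction (edgeR adjusted p = 4.14e-05), and lipid loading 3.52 ± 0.77 above starvation (edgeR adjusted p = 0.000447). Without starvation replicate 2 these values were -5.38 and 4.38, and without lipid loading replicate 1 the latter was 2.74, each still past the threshold. Lipid loading and serum reduction did not differ past the threshold at p27 (-0.44 ± 0.74, edgeR adjusted p = 0.647) or at p77 (-1.0 ± 0.52, edgeR adjusted p = 0.108). At p77 this value was -1.77 without lipid loading replicate 1, which then passed (edgeR adjusted p = 0.0146). Described against proliferation, ces3 was lower in each confluent state of p77, by -7.17 ± 0.72 in starvation, -2.66 ± 0.51 in reduction and -3.66 ± 0.53 in lipid loading.

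For hopx lipid loading was the state that stood apart. It was lower there than in serum reduction by -3.06 ± 0.46 in p27 and -4.26 ± 0.45 in p77 (edgeR adjusted p = 3.05e-06 and 8.31e-09). Against starvation the values were -3.07 ± 0.47 and -3.55 ± 0.45 (edgeR adjusted p = 2.49e-06 and 2.34e-07). Without p77 lipid loading replicate 3 the p77 values were -4.89 and -4.19. No lipid-loaded library reached the lowest starved or serum-reduced library of its stage. Starvation and reduction did not differ past the threshold, at 0.01 ± 0.37 in p27 (edgeR adjusted p = 0.996) and -0.71 ± 0.36 in p77 (edgeR adjusted p = 0.149). Described against proliferation, hopx in p27 was 4.73 ± 0.57 higher in starvation and 4.73 ± 0.56 higher in reduction, where proliferating libraries held 1 to 5 counts. Lipid loading in p27 stood 1.66 ± 0.71 above proliferation, with 24 counts against 7, and 2.82 above it without p27 proliferation replicate 3, which put the other values at 5.89. In p77 the same values were -0.49 ± 0.36 and 0.22 ± 0.36, and lipid loading stood at -4.04 ± 0.45.

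Read over these state comparisons, 2 of the 3 genes in the fit passed between starvation and serum reduction at p27 and 2 at p77, where 37.9% and 29.9% of all genes tested passed. Between lipid loading and serum reduction 2 of 3 passed at each stage, against 55.1% and 57.3% of all genes. Between lipid loading and starvation 3 of 3 passed at each stage, against 61.2% and 52.6%. In these fits shisal1b was again absent. With no low-count filter its difference between lipid loading and serum reduction in p77, 0 against 16 counts, passed (edgeR adjusted p = 0.0440). Starvation against reduction in p77 did not (edgeR adjusted p = 0.0859), nor did any state comparison in p27 (smallest edgeR adjusted p = 0.571).

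In order of mean level over the 10 groups, nanos1 ran from 98.1 ± 8.18 CPM in starved Mack1 p77 through 59.8 ± 5.17 CPM in lipid-loaded p77 to 0.0140 ± 0.0280 CPM in Mack2 p180. Neighbours in that order that overlapped were serum-reduced and proliferating p77 (42.2 ± 3.63 and 37.2 ± 1.44 CPM), proliferating p77 and starved p27, and Mack2 p2 and serum-reduced p27 (10.0 ± 1.14 and 8.72 ± 0.67 CPM). For ces3, Mack1 p77 and Mack2 p2 in proliferation came first (12.2 ± 1.25 and 10.2 ± 1.59 CPM, overlapping), and serum-reduced p77 (1.88 ± 0.43 CPM) followed with a gap above it. Serum-reduced p77 did not overlap the next group, proliferating p27. It did overlap lipid-loaded p77 further down, which reached 1.76 CPM against its lowest library at 1.56 CPM. From proliferating p27 (1.00 ± 0.45 CPM) downward each group of ces3 overlapped the next. For hopx the first 5 groups overlapped in turn, from serum-reduced p77 (6.41 ± 0.45 CPM) down to starved p27 (2.76 ± 0.73 CPM), and a gap parted them from the other 5, all with means of at most 0.341 CPM. For shisal1b the 1 gap in the order was below Mack2 p180, at 33.7 ± 1.15 CPM, and Mack2 p2 came next at 0.828 ± 0.234 CPM.

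Among themselves the 4 genes fell into unlike patterns. Over the 10 group means of log2(CPM + 0.5), nanos1 and hopx had a Pearson correlation of 0.608, nanos1 and ces3 of 0.145, and nanos1 and shisal1b of -0.85. These correlations are a description over 10 points. Mack2 p180 alone holds most of the range of shisal1b in them, and line and batch label nearly coincide.

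The genes with the most similar pattern to each were sought among 10609 candidates carrying a symbol and reaching a mean of 1 CPM somewhere. For nanos1 they were dhdh.2 (r = 0.951), uap1l1 (r = 0.927) and metrn (r = 0.925), over 10 group means. The last, a gene for the secreted factor meteorin, ran from 35.4 CPM in starved p77 to 0.869 CPM in Mack2 p180. For ces3 they were rnf208 (r = 0.902), tinagl1 (r = 0.874) and edaradd (r = 0.872). Of these tinagl1, which codes for an extracellular matrix protein, stood at 20.3 CPM in proliferating p77 and 10.4 CPM in Mack2 p2, against 0.529 CPM in starved p77 and 0.311 CPM in Mack2 p180. For hopx they were si:dkey-17m8.1 (r = 0.899), mcur1 (r = 0.894), a regulator of calcium uptake by mitochondria, and the kinase gene lrrk2 (r = 0.884).

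For shisal1b the nearest were si:dkey-71h2.2 (r = 0.996), exd1 (r = 0.993) and the collagen gene col14a1a (r = 0.991), the last at 9.92 CPM in Mack2 p180 and 0.618 CPM in p2. The levels of si:dkey-71h2.2 and exd1 were low, at 1.06 and 1.49 CPM in Mack2 p180 and 0.107 and 0.138 CPM in p2. These correlations rest mostly on the Mack2 p180 group.

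**Figure D3:**
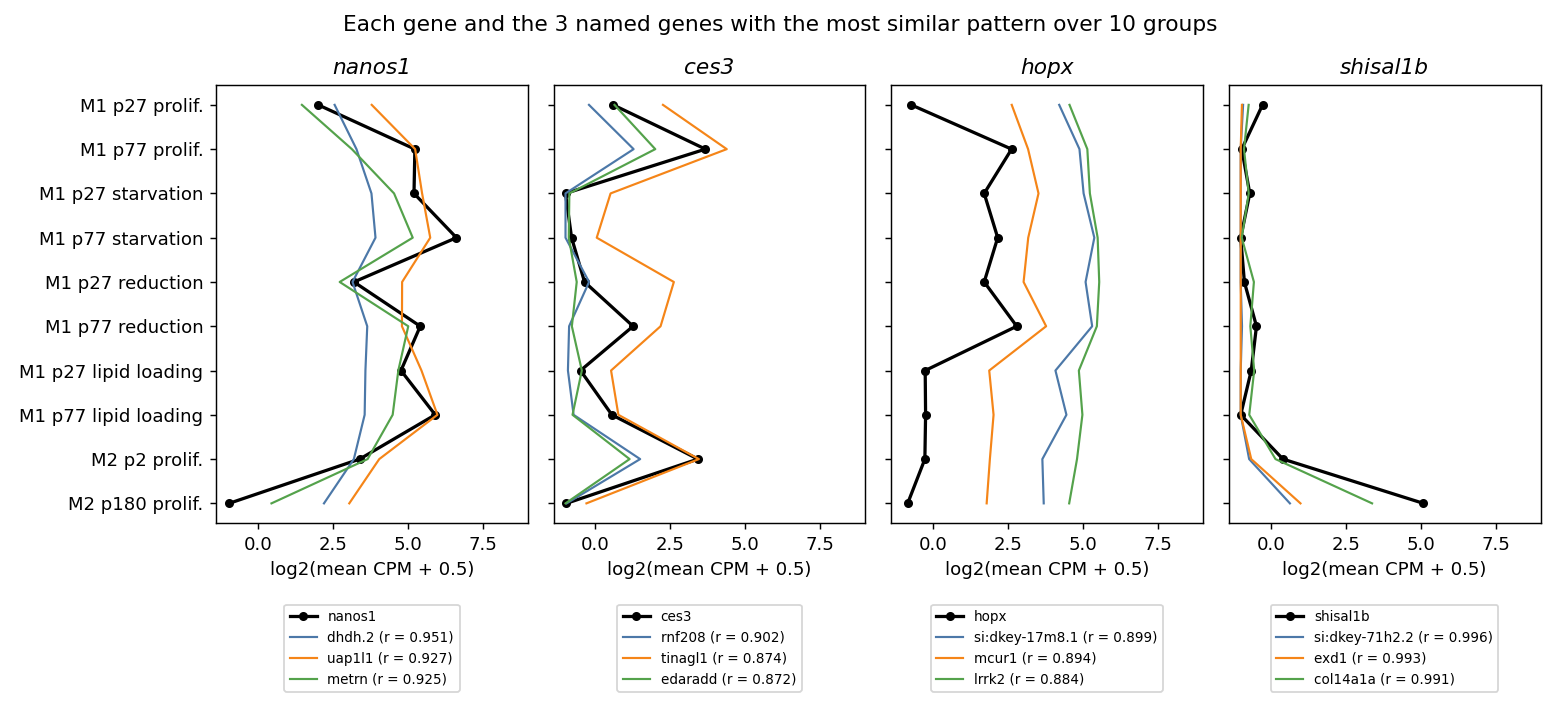
Mean level of each gene (black) and of the 3 named genes with the highest Pearson correlation to it (colours), as log2(mean CPM + 0.5) over the 10 groups. The lines for shisal1b are flat over Mack1 and rise in Mack2 p180, and those for nanos1 bend with stage and state in Mack1 and fall in Mack2 p180.

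Relatives and partners of the genes were read from lists. In the list of Nanos partners and germ granule genes, 26 others were in the table and 15 were tested. In proliferating Mack1 0 were higher and 3 lower in p77 (10.5% and 15.1% of all 15683 genes) by edgeR, with 1 higher at an unadjusted p under 0.05 and 1 higher by DESeq2. In Mack2 8 were higher and 1 lower in p180 (38.6% and 39.1% of all 13805 genes). The medians were -0.09 and 0.18, against -0.02 and 0.01 over all genes. The Pumilio-type gene pum3 fell in Mack1 (-0.34 ± 0.07, edgeR adjusted p = 0.000667) and rose in Mack2 (0.76 ± 0.05, edgeR adjusted p = 1.32e-09), with a difference of stage differences of 1.11 ± 0.07 (edgeR adjusted p = 5.98e-11). That is the opposite direction to nanos1 and far smaller in size. The deadenylase subunit gene cnot3a and the Tudor domain gene tdrkh also passed as lower in Mack1 p77 and higher in Mack2 p180, by differences of 0.57 ± 0.08 and 0.74 ± 0.14 (edgeR adjusted p = 1.62e-06 and 0.000171). The Tudor domain gene tdrd7b passed in Mack2 (0.33 ± 0.05, edgeR adjusted p = 1.9e-05) and not in Mack1 (-0.20 ± 0.12, edgeR adjusted p = 0.253). The germ cell Nanos gene nanos3 stood at 0.336 ± 0.0967 CPM in Mack2 p2, had no count in p180 and was not in the fits.

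Of 7 carboxylesterase-like genes with a symbol, none with the stem ces, all 7 were tested in proliferating Mack1 and none passed edgeR's test, none had an unadjusted p under 0.05 and DESeq2 called 0. In Mack2 3 of 4 tested were lower in p180, where 39.1% of all genes were. They were aadacl4, at 4.54 ± 0.948 against 12.4 ± 0.744 CPM (-1.46 ± 0.12, edgeR adjusted p = 2.61e-08), the acetylcholinesterase gene ache (-0.61 ± 0.11, edgeR adjusted p = 7.35e-05) and the hormone-sensitive lipase gene lipeb (-0.23 ± 0.09, edgeR adjusted p = 0.0323). Of these, ache passed the difference of stage differences between the lines (-0.66 ± 0.17, edgeR adjusted p = 0.00211), where 56.5% of 14706 genes did.

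In the shisa family, shisa4 was the 1 of 5 other members in the fits. It was higher after immortalization in both lines, by 0.45 ± 0.12 in Mack1 and 0.67 ± 0.08 in Mack2 (edgeR adjusted p = 0.00676 and 8.34e-07), and the 2 did not differ past the threshold (0.23 ± 0.12, edgeR adjusted p = 0.0984). The levels of shisa3, shisa8b, shisa9a and shisa9b were at most 0.303 CPM in the mean of any group compared across stages.

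Of the 12 other genes in the hopx partner list, 8 were tested in Mack1 and 9 in Mack2. In Mack1 2 were higher and 2 lower in p77, against 10.5% and 15.1% of all genes. In Mack2 5 were higher and 3 lower in p180, against 38.6% and 39.1% of all genes. The deacetylase gene hdac3 was higher after immortalization in both lines, by 0.40 ± 0.11 and 1.28 ± 0.05 (edgeR adjusted p = 0.00881 and 2.01e-12). The muscle transcription factor gene mef2cb was lower in Mack1 p77 (-0.39 ± 0.07, edgeR adjusted p = 7.38e-05) and higher in Mack2 p180 (0.73 ± 0.04, edgeR adjusted p = 4.04e-11). Its relative mef2aa was lower in Mack2 p180 (-1.57 ± 0.04, edgeR adjusted p = 2.22e-14) and did not pass in Mack1 proliferation (0.10 ± 0.11, edgeR adjusted p = 0.552). The srfb gene for serum response factor did not pass in Mack1 proliferation (-0.14 ± 0.09, edgeR adjusted p = 0.284) and was 0.34 ± 0.03 higher in Mack2 p180 (edgeR adjusted p = 2.39e-07).

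Position was another property that had no part in the choice. By gene order in the RefSeq annotation of assembly fScoSco1.1, hopx and nanos1 are on the same chromosome with 21 genes between them, and shisal1b and ces3 share another with 594 genes between them. Of the 21 genes between hopx and nanos1, 14 were tested in proliferating Mack1, with 3 higher and 2 lower in p77 and a median of 0.22, where 10.5% of all genes were higher and 15.1% lower with a median of -0.02. In Mack2 13 were tested, with 8 higher and 2 lower in p180 and a median of 0.39, where 38.6% of all genes were higher and 39.1% lower with a median of 0.01. The stretch was chosen after the values were seen.

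Of the near neighbours, some shared the direction of the gene beside them and others did not. Next to nanos1 lies lbx2, a homeobox gene of muscle precursors, which was higher in proliferating Mack1 p77 than in p27, at 4.62 ± 0.534 against 2.30 ± 0.604 CPM (1.01 ± 0.30, edgeR adjusted p = 0.0118). In Mack2 lbx2 had 22 counts over the p2 libraries and 2 over the p180 libraries. On the same side pcgf1, a Polycomb gene, rose in Mack2 against the direction of nanos1 (1.16 ± 0.16, edgeR adjusted p = 1.01e-05) and did not pass in Mack1 (0.57 ± 0.39, edgeR adjusted p = 0.325). LOC133986195, the second gene on the other side of nanos1, was also higher in Mack1 p77 (2.57 ± 0.86, edgeR adjusted p = 0.0275) and had 9 and 2 counts in Mack2 p2 and p180.

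Beside ces3, kiaa0513 was higher in Mack1 p77 (1.19 ± 0.22, edgeR adjusted p = 0.000174) and did not pass in Mack2 (-0.20 ± 0.17, edgeR adjusted p = 0.298). On its other side zfpm1, a cofactor of GATA factors, fell in Mack2 (-1.99 ± 0.19, edgeR adjusted p = 9.28e-08) and did not pass in Mack1 (-0.11 ± 0.51, edgeR adjusted p = 0.929). Also near ces3, acd rose in Mack2 against the direction of ces3 (1.05 ± 0.14, edgeR adjusted p = 3.79e-06). In Mack1 acd did not pass (-0.07 ± 0.27, edgeR adjusted p = 0.910). Next to hopx, arl9 was higher after immortalization in both lines (0.54 ± 0.10 and 0.65 ± 0.04, edgeR adjusted p = 0.000113 and 8.03e-10). The other tested neighbours of hopx were LOC133985778, LOC133985908, sec24b and srp72. In Mack2 p180 they were higher, against the direction of hopx, by 0.85, 0.71, 0.68 and 0.39 (largest edgeR adjusted p = 2.27e-05). None of them passed in Mack1 (smallest edgeR adjusted p = 0.328). Near shisal1b, parvb was lower in Mack1 p77 (-0.97 ± 0.09, edgeR adjusted p = 3.66e-09) and did not pass in Mack2 (-0.05 ± 0.04, edgeR adjusted p = 0.240). There hdac10 was higher in Mack2 p180 (1.04 ± 0.14, edgeR adjusted p = 7.35e-06) and did not pass in Mack1 (0.36 ± 0.28, edgeR adjusted p = 0.400). Next to shisal1b, parvg did not pass in either line (edgeR adjusted p = 0.905 in Mack1 and 0.589 in Mack2), and 2 small nuclear RNA genes on its other side had no count in the proliferating libraries.

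**Figure D4:**
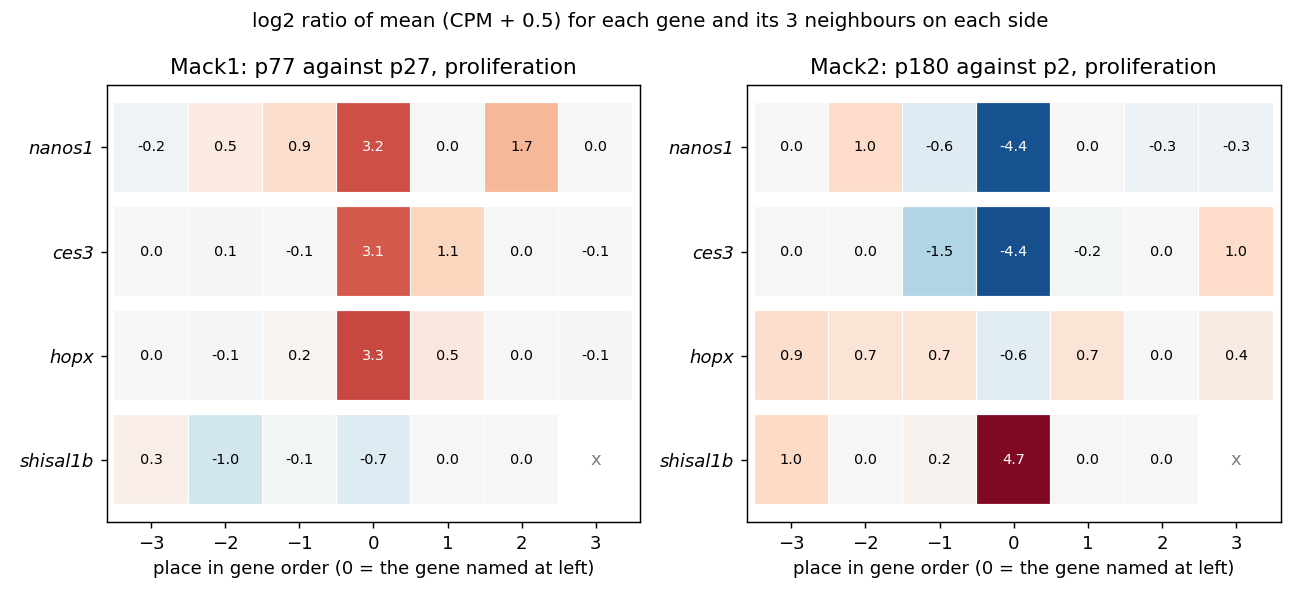
Log2 ratio of mean (CPM + 0.5) after against before immortalization, in proliferation, for each gene (place 0) and the 3 annotated genes on each side in gene order, in Mack1 (left) and Mack2 (right). The 4 genes differ more than their neighbours in the line where they are high. These libraries chose the 4 genes and not the neighbours, so this contrast says nothing of position. The gene lbx2 at place -1 of nanos1 shares the direction of nanos1. A cross marks a gene that is absent from the count table.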

How the data were processed

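Poly(A) RNA was sequenced without strand information in paired 150 nt reads, per the labels' protocols. FastQC, STAR, Salmon 1.10.1 and DESeq2 appear in the submitters' processing notes without a role, and the sources used here name no genome build. The authors deposited raw counts per gene (24189 genes, 32 libraries, 16.9 to 32 M counts each) and a normalized signal, whose values equal raw counts over a library's single size factor (0.621 to 1.34). Gene numbers matched RefSeq's gene table of fScoSco1.1. Replicate pairs differed beyond counting error in each of 36 pairs (chi-square per degree of freedom 3.25 to 84.1).

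The tests used edgeR 4.0.16 (R 4.3.3) on the counts: filterByExpr, TMM, glmQLFit on group means and glmQLFTest, with Benjamini-Hochberg adjustment over all genes tested and a threshold of 0.05. Fits held the 24 Mack1 libraries (15683 genes), the 8 Mack2 libraries (13805) or the 14 proliferating libraries (14706). Alternatives were DESeq2 1.42.0, RLE scaling, dropping the low-count filter or replacing it by a 1 CPM mean, limma-trend (limma 3.58.1) on the log2 of the normalized signal plus 1, a replicate block, only the groups compared, and each library left out. The procedure was tested on simulated data. The genes, lists and tests were chosen with earlier results of these data known. A further gene chosen with them is not reported here. Named are the 4 genes, the nearest relatives and up to 4 genes per list by p in the difference between lines, the 3 genes most alike by Pearson correlation and 3 neighbours on each side. No sequence of these genes was used here. Figures come from matplotlib 3.10.9 under Python 3.11.15.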

Additional observations from a re-analysis of the deposited data

Results flagged for a closer look

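In serum reduction the Mack1 stage difference of nanos1 was larger than in the other confluent states, by the test of the difference itself: the log2 difference was -0.88 ± 0.14 for starvation minus reduction and -1.13 ± 0.14 for lipid loading minus reduction.

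For all 4 genes the libraries of the 2 stages did not overlap in proliferation, with opposite directions in Mack1 and Mack2. The genes were chosen from these libraries, and the difference was not tested. The share of all genes with such groups was not counted. For hopx in Mack2 the nearest libraries, at 0.168 CPM in p180 and 0.202 CPM in p2, held 3 counts each. In mean CPM, later minus earlier stage, nanos1 differed by 33.7 in Mack1 and -10.0 in Mack2, ces3 by 11.2 and -10.1, and hopx by 5.54 and -0.27. For shisal1b the values were -0.32 and 32.8.

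In Mack2 p180 1 library stood apart from the other 3 for nanos1, at 0.0560 CPM, and for ces3, at 0.0409 CPM. Each of these values is 1 count against none in the others. The rule behind this flag compares the gap beside the outermost library with the range of the group. A lone count in a group is flagged by it in every case, so the flags add nothing to these counts.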

How the results depend on the processing

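Most values kept their direction and their side of the threshold under DESeq2, RLE scaling, either other count filter, limma-trend, the groups compared alone and each library left out. By limma-trend the hopx stage difference in serum reduction was 1.21 (adjusted p = 0.0573), that in lipid loading -0.000287, and 2 differences of ces3 stage differences changed sign without passing, starvation minus reduction to -1.61 and lipid loading minus starvation to 0.85. With only the compared groups fitted, 1348 genes passed the stage difference in starvation (3345 otherwise), 2634 starvation against reduction in p77 (4685) and 1653 the starvation minus reduction difference (2612). For hopx, starvation against reduction in p27 lay at 0.01 and turned to -0.0278 by DESeq2, -0.0289 by RLE, -0.0146 with a mean of 1 CPM, -0.0615 by limma-trend, -0.0171 with only these groups, and -0.23 to 0.12 with 1 library left out.

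With 1 library left out, log2 stage differences ranged from 1.42 to 3.15 for ces3 and -0.60 to 0.43 for hopx in lipid loading. Log2 ratios and bounds ranged from -2.54 to -1.32 (shisal1b, lipid loading) and -2.13 to -0.85 (shisal1b, starvation). Over the proliferating libraries the Mack1 stage difference ranged from 5.38 to 6.90 for hopx and -5.07 to -2.42 for shisal1b. For ces3, lipid loading against reduction in p27 ranged from -1.39 to 0.0241, and the lipid loading minus reduction difference from -1.34 to 0.39. The cause of these changes was not tested.

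Deviations from group means of same-numbered libraries had correlations of -0.162 to 0.102 in Mack1 (84 pairs) and -0.0644 to 0.156 in Mack2 (4 pairs). These ranges do not show whether same-numbered libraries were paired in culture or preparation. With a replicate block 78 of 79 values kept direction and call. The other was hopx, starvation against reduction in p27, at -0.00501. Counts near the floor limit shisal1b in Mack1 and hopx in Mack2.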

Other observations

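Between hopx and nanos1 in gene order lies fat4 (gene 133985825), an atypical cadherin gene, singled out after its values were seen. It fell in both lines in proliferation. In Mack2 it went from 46.6 ± 7.94 CPM in p2 to 0.344 ± 0.181 CPM in p180 (n = 4 each), 27 against 3074 counts, with edgeR's adjusted p of 8.28e-14. In Mack1 it had 36 counts over the proliferating p27 libraries and none in p77, at least 13-fold lower (exact interval from 10.1, edgeR adjusted p = 6.83e-05). Confluent Mack1 cultures held far more of it, from 6.64 ± 1.63 CPM in starved p27 to 40.4 ± 3.12 CPM in lipid-loaded p27, and 23.3 ± 1.79 CPM in lipid-loaded p77 (n = 3 each). Starved p77 held more fat4 than starved p27, at 16.3 ± 3.46 CPM with no overlap. Under reduced serum it stood at 14.2 ± 2.77 CPM in p27 and 15.9 ± 4.09 CPM in p77 (n = 3 each).

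The cholinesterase gene ache and the lipase gene mgll rose with stage in starved Mack1, as the 2 of 7 carboxylesterase-like genes that passed there, where 11.1% of all genes were higher: ache by 0.74 ± 0.19 (8.75 to 14.9 CPM, edgeR adjusted p = 0.00513) and mgll by 2.64 ± 0.70 (0.431 to 2.76 CPM, edgeR adjusted p = 0.00743). Of the hopx partner list, mef2aa rose with stage in lipid-loaded cultures, by 1.52 ± 0.09 (edgeR adjusted p = 1.27e-12). The gene mgll and the culture states in this paragraph were chosen after their values were seen.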
